A study of Danio rerio with 5 samples.

Results

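The genes described here encode the microRNA pathway of the zebrafish (Danio rerio) embryo: the nuclear processing complex (dgcr8, drosha), the cytoplasmic nuclease Dicer (dicer1), the Argonaute proteins (ago1, ago2, ago3a, ago3b, ago4) and the TNRC6 adaptors (tnrc6a, tnrc6b). They are 10 of the 32520 genes in the deposited tables and were chosen by symbol. 7 were found under these symbols. The other 3 are listed as ago-01, ago-02 and ago-04, and were taken as ago1, ago2 and ago4 because a name table pairs their Ensembl identifiers with those genes. RNA of whole embryos was sequenced at 4 hours after fertilisation in 5 libraries. Embryos labelled as knockdowns with RfxCas13d, a CRISPR nuclease that cuts RNA, gave 1 library with a pool of 10 guides and 1 library with a pool of 25 guides. Each pool held a guide against szrd1, with 9 and 24 further guides; which genes those target is not given here. The 3 control libraries, replicates 1 to 3, are labelled RfxCas13d control, and the sources used here do not say what was injected into them, which strain was used or how many embryos were pooled. The study's question was how large a guide pool can be while its efficient guides can still be picked out.

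In animals, microRNA genes are transcribed into long precursors that the nuclease Drosha and its RNA-binding partner Dgcr8 cut into hairpins in the nucleus. Dicer cuts the hairpin into a short duplex, and an Argonaute protein keeps one strand and pairs it with target mRNAs. TNRC6 proteins bind Argonaute and recruit the deadenylases that shorten the poly(A) tail. In the zebrafish blastula the abundant family miR-430, transcribed from the activated embryonic genome, uses this machinery to clear many maternal mRNAs. Embryos that lack both maternal and zygotic Dicer do not make mature microRNAs by the usual route and have defects of morphogenesis that added miR-430 largely corrects.

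Gene counts totalled between 5283761 in control replicate 3 and 14179837 in control replicate 2, and the 10 genes had between 48 reads (ago1, control replicate 2) and 2024 reads (dgcr8, pool of 25) per library. The guide target checks the labels: szrd1 was at 41.3 and 45.6 CPM (normalised counts scaled to library size) in the pools of 10 and 25, against 221, 278 and 311 CPM in control replicates 1 to 3. Both pools and control replicate 3 were prepared at 1/8 of the kit's reaction volume, and control replicates 1 and 2 at 1/4, so that volume and guide pools are partly confounded. Control replicate 3 stood apart from the other controls, and results for the 10 genes are given with and without it where they differ. For the lists of further genes, fold changes and counts rest on all 3 controls. Reads that named no gene made up 53.8% of control replicate 3 and between 26.7% and 33.9% of each of the other libraries. Whether the controls are separate clutches is not stated; the p-values therefore rest on the spread between the libraries alone, which may be technical. In whole embryos, fewer cells that carry an mRNA and less of it per cell cannot be told apart.

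None of the 10 genes passed the test in the pools. In the comparison of both pools with the controls, edgeR's quasi-likelihood test with Benjamini-Hochberg adjustment called 0 of 16445 tested genes in either direction (0% of all genes). The smallest adjusted p of the 10 genes was 0.464. Over all tested genes it was 0.147, so the guide target szrd1, far below every control in both pools, was not called either. At an unadjusted p under 0.05, 1 of the 10 was higher (tnrc6a) and 0 were lower, against 3.97% and 6.66% of all tested genes. Scaled by library size alone, 2 of the 10 were higher at that level, and over all genes 866 were higher and 572 lower, where the main scaling gave 653 and 1096. DESeq2 called 39 genes higher (0.237%) and 67 lower (0.407%), with 0 of the 10 among them. By level alone, 5 of the 10 genes lay above every control in both pools (dgcr8, dicer1, ago1, ago3b and tnrc6a) and 1 lay below every control (tnrc6b). Over all tested genes 14.6% lay above and 14.9% below. The median log2 fold change of the 10 genes was 0.63, against -0.08 over all tested genes.

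The position of control replicate 3 bears on most of these values. On the log2 CPM scale 9 of the 10 genes were higher in control replicate 3 than the mean of control replicates 1 and 2, and the median difference of the 10 was 0.85. On the log2(CPM + 1) scale that median was 0.81, while 47.6% of all tested genes lay above 0, with a median of -0.06. On that scale, 4 of the 10 lay at least 2-fold above that mean, as did 16.5% of all tested genes. Set against control replicate 3 alone, the library made at the same volume, the 10 genes had a median log2 difference of 0.03 with 10 guides and 0.25 with 25, with 6 of 10 above 0 in each, against 49.9% and 49.5% of all tested genes. Without control replicate 3, edgeR called 6 of the 10 higher in both pools (dgcr8, drosha, ago1, ago2, ago4 and tnrc6a), where it called 11.9% of all genes higher and 12.8% lower. By level, 9 of the 10 lay above both control replicates 1 and 2 in both pools and 1 below (tnrc6b), against 31.2% and 33.4% of all tested genes. In these comparisons volume and guide pools cannot be told apart.

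**Figure D1:**
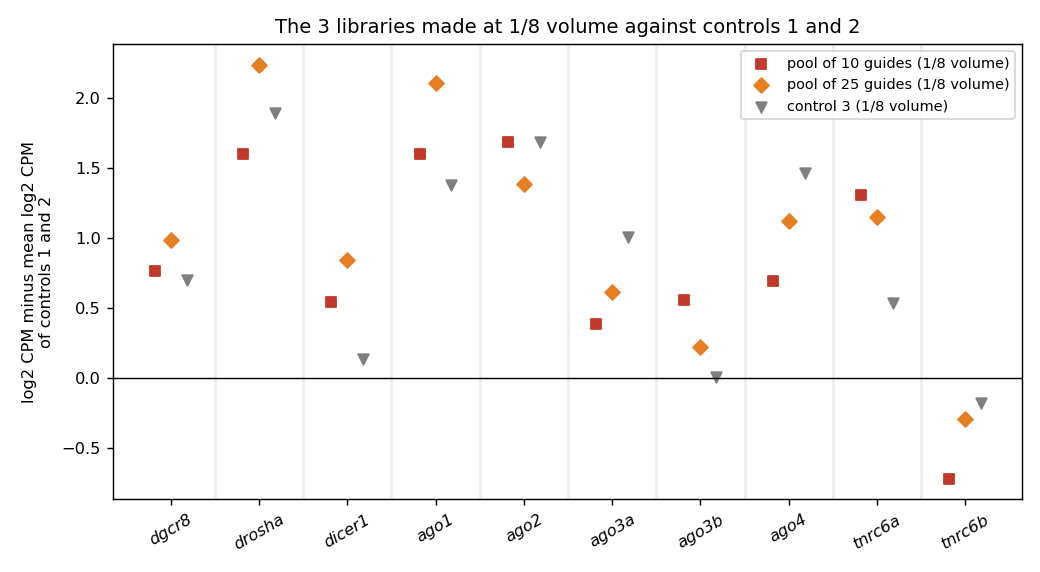
Level of each gene (horizontal axis) in the 3 libraries made at 1/8 volume, as log2 CPM minus the mean log2 CPM of control replicates 1 and 2 (vertical axis); squares are the pool of 10, diamonds the pool of 25 and triangles control replicate 3. For drosha, ago2, ago3a, ago4 and tnrc6b control replicate 3 lies above at least one pool, while for dgcr8, dicer1, ago1, ago3b and tnrc6a both pools lie above it.

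TPM (transcript abundance), a unit scaled for transcript length, allow levels to be compared between genes. Here they were not the reads divided by a fixed length per gene. The tnrc6a to tnrc6b ratio was higher in TPM than in reads in both pools and control replicate 3. In control replicates 1 and 2 it was lower in TPM. Ranks, shares and ratios in TPM may carry such differences between libraries, and their cause was not tested. dgcr8 had the highest mean level of the 10 in the controls, at 52.8 ± 31.5 TPM (SD, n = 3), followed by ago4 at 43.3 ± 40.9 TPM. dgcr8 ranked first in both pools and in control replicates 1 and 2, and ago4 ranked first in control replicate 3. A middle group followed in the controls: ago3b at 15.4 ± 5.92 TPM, ago2 at 12.8 ± 13.2 TPM and tnrc6a at 12.5 ± 11.5 TPM. These 3 changed places between libraries, and neighbours among them did not differ beyond their spread. The lowest levels in the controls were those of drosha (8.09 ± 9.67 TPM), ago3a (6.5 ± 5.27 TPM), dicer1 (5.53 ± 2.6 TPM), ago1 (4.68 ± 4.48 TPM) and tnrc6b (3.83 ± 0.965 TPM), again with no neighbours apart beyond their spread. ago4 exceeded ago3b, and tnrc6a exceeded drosha, in 5 of 5 libraries. tnrc6b ranked last in both pools.

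**Figure D2:**
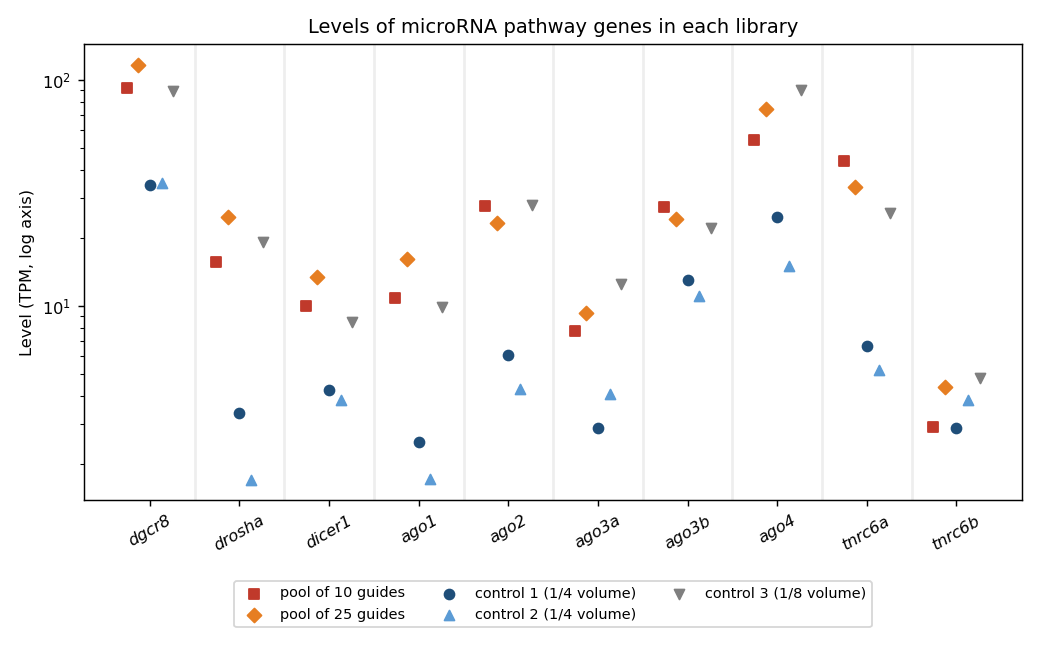
Level of each of the 10 genes (horizontal axis) in every library, in TPM on a log axis; squares and diamonds are the pools of 10 and 25, circles, upward triangles and downward triangles control replicates 1 to 3. dgcr8 and ago4 lead in all 5 libraries, and for every gene shown control replicate 3 lies above control replicates 1 and 2 in TPM. In TPM this also holds for szrd1, outside these genes, and in CPM it does not hold for ago3b and tnrc6b.

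dgcr8 (ENSDARG00000035564) encodes the double-stranded RNA binding partner of Drosha, which recognises the precursor hairpin. It was at 237 and 277 CPM in the pools of 10 and 25, against 132, 148 and 227 CPM in control replicates 1 to 3. Both pools lay above every control, the pool of 10 by little. Both pools together differed from the controls by a log2 fold change of 0.60 (SE 0.376, with a 95% interval of -0.23 to 1.44; edgeR, adjusted p = 0.524), which was 0.18 (SE 0.273) with a term for library volume. With that term, the pools are in effect compared with control replicate 3.

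drosha (ENSDARG00000055563), the nuclease of the same complex, varied most of the 10 between libraries. Its level was 33.8 and 52.4 CPM in the pools of 10 and 25, against 14.04, 8.82 and 41.4 CPM in control replicates 1 to 3. The pool of 10 lay within the range of the controls and the pool of 25 above it. Its log2 fold change of 1.02 (SE 0.611; bounds -0.34 and 2.38; edgeR, adjusted p = 0.512) became 0.06 (SE 0.43) with the volume term. In TPM, the level of dgcr8 was 5.88 and 4.72 times that of drosha in the pools of 10 and 25, against 10.2, 20.6 and 4.64 times in control replicates 1 to 3. In every library dgcr8 was the more abundant partner, and the ratio in the pools was close to that in control replicate 3.

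dicer1 (ENSDARG00000001129) encodes the nuclease that makes the mature duplex. It was at 56.5 and 69.5 CPM in the pools of 10 and 25, against 37.8, 39.9 and 42.6 CPM in control replicates 1 to 3, which were close to each other. Both pools lay above every control, of which only control replicate 3 was made at their library volume. A log2 fold change of 0.65 (SE 0.368; bounds -0.17 and 1.47; edgeR, adjusted p = 0.495) was measured, and 0.56 (SE 0.332) with the volume term. On the per-length scale dicer1 was at 10.0 and 13.4 TPM in the pools of 10 and 25, against 4.25, 3.82 and 8.52 TPM in control replicates 1 to 3, so the controls were less alike in TPM.

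**Figure D3:**
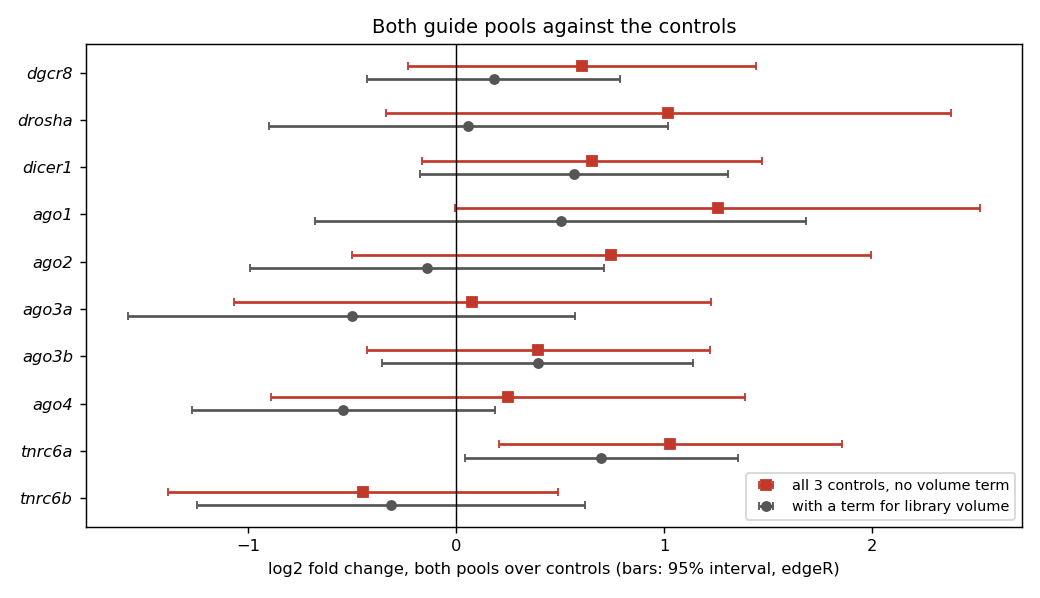
log2 fold change of both pools over the controls for each gene (rows), with 95% intervals from edgeR; squares use all 3 controls and circles add a term for library volume. The interval of tnrc6a lies above 0 in both fits without adjustment over all genes, and the values of drosha, ago1, ago2, ago3a and ago4 shift by over 0.5 with the volume term.

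The Argonaute genes encode the proteins that hold the microRNA and find its targets. Ago2 is the Argonaute with target-cutting activity in mammals, while repression through TNRC6 is shared by the family. ago4 (ENSDARG00000100854) was the most abundant Argonaute mRNA per length in all 5 libraries. It made up 42.3% and 50.4% of the summed Argonaute TPM in the pools of 10 and 25, against 50.2%, 41.6% and 55.5% in control replicates 1 to 3, so that the groups overlapped. Its level was 84.1 and 113 CPM in the pools, against 62.4, 43.4 and 144 CPM in the controls, both pools within the control range. The log2 fold change was 0.25 (SE 0.512; edgeR, adjusted p = 0.849), and it was -0.54 (SE 0.327) with the volume term.

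ago2 (ENSDARG00000061268) was at 44.0 and 35.7 CPM in the pools of 10 and 25, against 16.3, 11.5 and 44.0 CPM in control replicates 1 to 3. The pool of 10 was level with control replicate 3, and both were well above the other controls. The log2 fold change was 0.75 (SE 0.561; edgeR, adjusted p = 0.591), and -0.14 (SE 0.38) with the volume term. ago2 accounted for 21.7% and 15.8% of the summed Argonaute TPM in the pools of 10 and 25, against 12.3%, 11.8% and 17.2% in control replicates 1 to 3.

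ago1 (ENSDARG00000092644) had few reads, 117 and 164 in the pools of 10 and 25, against 79, 48 and 78 in control replicates 1 to 3. These corresponded to 15.8 and 22.4 CPM in the pools and to 6.72, 4.03 and 13.5 CPM in the controls. Both pools lay above every control, with a log2 fold change of 1.26 (SE 0.567, 95% bounds -0.01 and 2.52; edgeR, adjusted p = 0.465), and 0.50 (SE 0.529) with the volume term. Its share of the Argonaute reads, which does not depend on the scaling between libraries, was 7.29% with 10 guides (exact Clopper-Pearson 95% interval 6.07 to 8.67) and 9.61% with 25 guides (8.26 to 11.1). It was 5.04% (4.01 to 6.24), 3.58% (2.65 to 4.72) and 5.17% (4.11 to 6.41) in control replicates 1 to 3. These intervals cover counting error only, and those of the pool of 10 and control replicates 1 and 3 overlapped. In TPM the share was 8.50% and 10.9% in the pools of 10 and 25, against 5.09%, 4.74% and 6.04% in the controls, without overlap. How often the shares of other genes separate the groups in this way was not counted.

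ago3a (ENSDARG00000059888) and ago3b (ENSDARG00000063079) are a duplicated pair, and ago3a lies next to ago1 with no gene listed between them in the RefSeq table of assembly GRCz12tu. ago3a was at 12.0 and 14.1 CPM in the pools of 10 and 25, against 7.49, 11.3 and 18.5 CPM in control replicates 1 to 3, both pools within the control range (log2 fold change 0.08, SE 0.515; edgeR, adjusted p = 0.956). ago3b was at 60.8 and 48.2 CPM in the pools, against 40.4, 42.3 and 41.5 CPM in the controls. In CPM the controls were the closest together of all 10 genes, with a coefficient of variation of 2.35%, but in TPM it was 38.5% and tnrc6b was closest at 25.2%. Both pools lay above every control of ago3b in CPM and in TPM. The log2 fold change of ago3b was 0.39 (SE 0.371; edgeR, adjusted p = 0.666), and also 0.39 (SE 0.336) with the volume term. In every library ago3b was the more abundant of the pair per length, by 3.54 and 2.63 times in the pools of 10 and 25, against 4.52, 2.71 and 1.77 times in control replicates 1 to 3. Reads in stretches that Argonaute genes share could be divided between them by the authors' counting, so small differences within the family are uncertain.

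The summed Argonaute level was 128 and 147 TPM in the pools of 10 and 25, against 49.1, 36.1 and 163 TPM in control replicates 1 to 3. Control replicate 3 was the highest library of the 5 for this sum, and the pools lay between it and the other controls.

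tnrc6a and tnrc6b encode scaffold proteins of the TNRC6 (GW182) family, which connect Argonaute to the deadenylase complexes. tnrc6a (ENSDARG00000079688) was at 136 and 122 CPM in the pools of 10 and 25, against 58.3, 51.7 and 79.5 CPM in control replicates 1 to 3. Both pools lay above every control. Its log2 fold change was 1.03 (SE 0.371, bounds 0.20 and 1.86), a 2.04-fold difference, with the smallest p-value of the 10 genes (edgeR, unadjusted p = 0.0194, adjusted p = 0.464). It was 0.70 (SE 0.294) with the volume term, and tnrc6a ranked 646 among all tested genes by p-value. In the single pools the log2 fold change was 1.11 (SE 0.58) with 10 guides and 0.95 (SE 0.584) with 25 guides.

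tnrc6b (ENSDARG00000074161, paired with tnrc6ba in the name table) was the one gene of the 10 with a negative fold change for both pools together. ago3a was also below 0 in the pool of 10 alone, at -0.04 on the log2 scale. The level of tnrc6b was 15.0 and 20.1 CPM in the pools of 10 and 25, against 21.1, 28.8 and 21.8 CPM in control replicates 1 to 3. Both pools lay below every control, the pool of 25 by little. The log2 fold change was -0.45 (SE 0.421; edgeR, adjusted p = 0.668). In deposited TPM, or scaled by library size alone, 0 of the 10 genes lay below every control in both pools.

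Within each library, tnrc6a and tnrc6b can be compared without a scaling between libraries. Of the reads on this pair, tnrc6a took 90.1% with 10 guides (exact Clopper-Pearson 95% interval 88.2 to 91.8) and 85.8% with 25 guides (83.5 to 87.9). It took 73.4% (70.5 to 76.2), 64.2% (61.1 to 67.2) and 78.5% (74.9 to 81.7) in control replicates 1 to 3. The groups did not overlap in this share, and neither did the counting intervals of the pools and the controls. Those intervals cover counting error only, and the interval of control replicate 2 also lay clear of those of control replicates 1 and 3. How many other gene pairs separate the groups in this way was not counted. In TPM, the level of tnrc6a was 15.0 and 7.74 times that of tnrc6b in the pools, against 2.32, 1.36 and 5.37 times in the controls. From reads the ratio was 9.07 and 6.04 in the pools, against 2.76, 1.79 and 3.64 in the controls. On both scales control replicate 3, made at the library volume of the pools, had the highest ratio of the controls. In CPM both pools lay above every control for tnrc6a and below every control for tnrc6b. The share and ratio of reads therefore had to separate the groups. Testing this ratio adds no support beyond the values of each gene. An exact two-sided permutation test of the log2 ratio of reads gave p = 0.1, the smallest p it allows. The test covers the 10 ways to label 2 of the 5 libraries as pools, so this design cannot pass 0.05. Adjusted over the 4 ratios computed (also dgcr8 to drosha, ago3b to ago3a and ago4 to ago2), that exact p was 0.2. With TPM the exact p of the same test was 0.2 (adjusted 0.4), because another labelling gave a difference at least as large. That labelling set control replicates 1 and 2, made at 1/4 volume, apart from the other libraries. The part of library volume in this ratio was not tested. The ratio of ago4 to ago2 reads also gave an exact p of 0.1 (adjusted 0.2), with 1.91 and 3.16 in the pools of 10 and 25, against 3.82, 3.77 and 3.27 in the controls. Of the other TNRC6 genes, tnrc6c1 had both pools within the control range and tnrc6c2 had both above it. tnrc6c1 was at 9.86 and 9.31 CPM in the pools of 10 and 25, against 17.8, 24.4 and 6.06 CPM in control replicates 1 to 3, and tnrc6c2 at 20.3 and 19.6 CPM, against 15.8, 10.6 and 10.0 CPM.

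**Figure D4:**
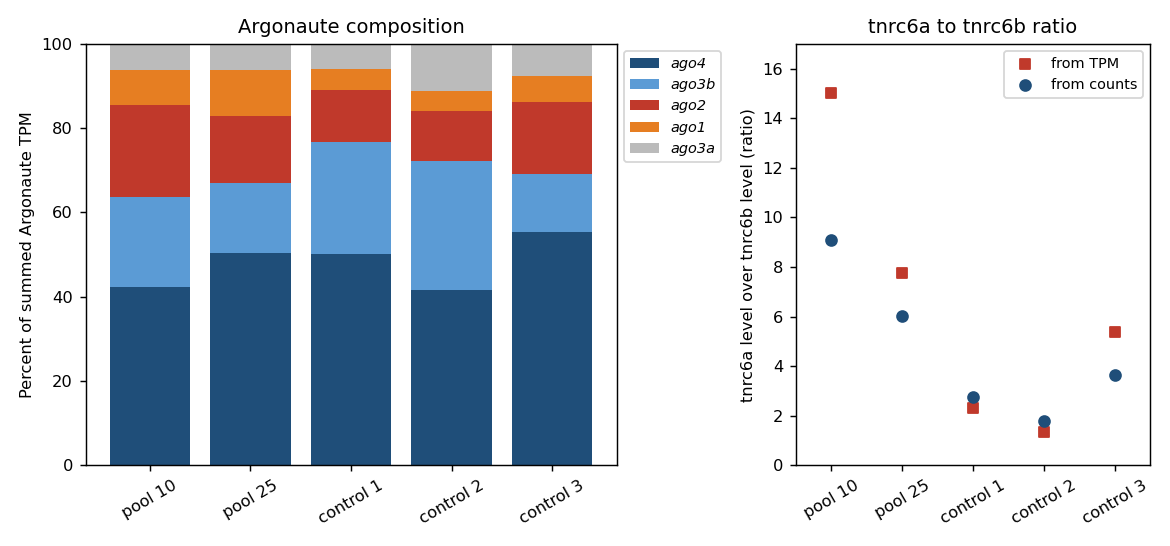
Left, share of each Argonaute gene in the summed Argonaute TPM of each library (percent, stacked); right, level of tnrc6a over that of tnrc6b in each library (ratio), squares from TPM and circles from reads. ago4 holds between 41.6% and 55.5% of the Argonaute sum in every library, and the tnrc6a to tnrc6b ratio is higher in both pools than in each control on both scales. The share of other gene pairs that separate the groups in this way was not computed.

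Against the controls one pool at a time, 0 of the 10 genes passed with 10 guides and 0 with 25 guides (edgeR, smallest adjusted p of the 10 genes 0.951 and 0.913; 0% of all genes were called in either pool). At an unadjusted p under 0.05, 0 of the 10 passed in each pool, against 1.42% higher and 1.8% lower genes with 10 guides and 1.22% higher and 1.84% lower with 25. DESeq2 called 0 of the 10 in each, and of all genes 3 higher (0.0182%) and 6 lower (0.0365%) with 10 guides, and 2 higher (0.0122%) and 7 lower (0.0426%) with 25. In each pool 6 of the 10 genes lay above every control and 1 below, against 23.6% above and 23.7% below of all genes in the pool of 10, and 24.3% and 25.1% in the pool of 25. ago2 was among those above in the pool of 10 and drosha in the pool of 25. The 2 pools share their controls, and the difference between them was not tested.

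Further genes of the pathway were read from lists. Of 27 listed partners, such as export, Dicer-binding and precursor-modifying factors, 25 were in the files and all 25 were tested. None passed (edgeR, smallest adjusted p = 0.464). With no adjustment, 1 was lower and 0 higher at p under 0.05, against 6.66% lower and 3.97% higher of all tested genes, so the share was near or under the background. Fold changes were above 0 for 15 of 25, with a median of 0.25, and for 7661 of the 16445 tested genes, with a median of -0.08. The lower one was ncbp2, a cap-binding protein gene, at 105 and 116 CPM in the pools of 10 and 25, against 433, 400 and 105 CPM in control replicates 1 to 3. Control replicate 3 was again level with the pools. ipo8, an import receptor gene, was at 32.8 and 39.7 CPM in the pools, against 19.2, 13.9 and 29.3 CPM in the controls. trim71, which encodes a ubiquitin ligase of the let-7 pathway, was at 233 and 229 CPM in the pools, against 92.0, 119 and 207 CPM in the controls. Both pools lay above every control for 6 of the 25 partners, ipo8 and trim71 among them, and below every control for 1. The shares over all tested genes were 14.6% above and 14.9% below.

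Most of the 26 listed effectors that act with or after TNRC6 are deadenylation and decapping factors. Poly(A)-binding protein and exonuclease genes were also listed. Of the 26, 22 had fold changes above 0, with a median of 0.50. Over all tested genes 7661 of 16445 were above 0, with a median of -0.08. In both pools 8 of the 26 lay above every control and 1 below, against 14.6% and 14.9% of all tested genes. None passed (edgeR, smallest adjusted p = 0.465), and 2 of 26 were higher at an unadjusted p under 0.05, against 3.97% of all genes. Those were dcp2, the catalytic decapping enzyme (44.4 and 41.1 CPM in the pools of 10 and 25, against 25.1, 19.998 and 22.0 CPM in control replicates 1 to 3), and edc3, an enhancer of decapping (78.1 and 72.0 CPM, against 30.6, 26.9 and 53.8 CPM). In control replicate 3 the median of this list was 0.82 above control replicates 1 and 2 on the log2(CPM + 1) scale, close to the 0.81 of the 10 microRNA pathway genes. Set against control replicate 3 on that scale, the list median averaged over the 2 pools was -0.04, and 0 over all tested genes. The Piwi-clade Argonautes, which bind piRNAs in germ cells, were a pair: piwil1 at 63.1 and 74.7 CPM in the pools of 10 and 25, against 39.1, 29.6 and 30.8 CPM in control replicates 1 to 3 (edgeR, adjusted p = 0.464), and piwil2 at 43.8 and 43.7 CPM, against 24.0, 20.7 and 53.8 CPM.

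miR-430 itself was not measured by these libraries. The files hold 55 entries for its precursor genes, which are near-identical copies, with 8 and 6 reads in all in the pools of 10 and 25, against 21, 25 and 9 in control replicates 1 to 3. These reads are not scaled to library size. Gene counts totalled 6872714 and 6528043 in the pools, against 13104114, 14179837 and 5283761 in the controls. Of 6 mRNAs known in zebrafish as miR-430 targets, 0 passed (edgeR, smallest adjusted p = 0.465), 4 had fold changes below 0 and the median was -0.26. Over all tested genes 8783 of 16445 were below 0, with a median of -0.08. At an unadjusted p under 0.05, which 3.97% of all genes passed as higher and 6.66% as lower, tdrd7a, a germ granule gene, was higher, at 157 and 170 CPM in the pools of 10 and 25, against 72.7, 53.4 and 116 CPM in control replicates 1 to 3. cxcl12a, a chemokine gene, was lower, at 12.6 and 8.35 CPM, against 25.1, 34.2 and 12.8 CPM. nanos3, a germ cell factor, was at 60.8 and 45.6 CPM in the pools, against 110, 184 and 43.8 CPM in the controls, with control replicate 3 below both pools.

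Other lists were read in the same libraries. Summed ribosomal protein mRNAs were at 4518 and 4039 CPM in the pools of 10 and 25, against 10669.6, 11308 and 4281 CPM in control replicates 1 to 3, with 80 of 81 fold changes below 0, against 8783 of the 16445 tested genes. Summed mitochondrial mRNAs were at 7483 and 7586 CPM in the pools, against 13078, 15271 and 4381 CPM in the controls. Both sums were highest in control replicates 1 and 2, the libraries whose mean log2 CPM lay below control replicate 3 for 9 of the 10 microRNA pathway genes. Markers of the enveloping layer, the outer epithelium, summed to 1225 and 1169 CPM in the pools, against 557, 2474 and 1578 CPM in the controls, so that control replicates 1 and 2 were the lowest and highest libraries, with cyt1 at 0 in control replicate 1. Of these 9 genes, 8 had fold changes below 0 and 1 above 0 (ppl), with a median of -0.91. In both pools ppl lay above every control and 0 of the 9 lay below, against 14.6% and 14.9% of all tested genes. Yolk syncytial layer markers summed to 186 and 178 CPM, against 340, 546 and 240 CPM, with apoa4b.1 at 0 in all 5 libraries. Most of each sum was mxtx2, at 151 and 156 CPM in the pools, against 330, 455 and 189 CPM in the controls. Of the 5 tested genes of this list, 4 had fold changes below 0 and 1 above 0. In both pools 1 of the 5 lay below every control, against 14.9% of all tested genes. Germ plasm genes summed to 1815 and 1560 CPM, against 1884, 1420 and 1217 CPM, with the sums of the groups overlapping. Of the 7 genes, 4 had fold changes below 0, and 2 lay above every control in both pools (14.6% of all tested genes). These were buc and tdrd6. The level of tdrd6 was 77.5 and 93.3 CPM in the pools, against 16.7, 10.6 and 21.1 CPM in the controls (edgeR, unadjusted p = 0.000195, adjusted p = 0.367). The part of these lists and of library volume in the values of the 10 genes was not tested.

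For the 3 genes with the widest range over the 5 libraries, the tested genes with the most similar profile were found by the distance between centred log2(CPM + 1) values over the 5 libraries, where 0 is an identical profile. The nearest to drosha were xpo6 (distance 0.201), atxn2l (0.227) and mfn1b (0.239). Nearest to ago1 were ttc7b (0.157), si:ch1073-263o8.2 (0.159) and CABZ01032476.1 (0.187), and nearest to ago2 were ccnjl (0.15), mul1b (0.171) and hook2 (0.176). xpo6, an export receptor gene, was at 212 and 315 CPM in the pools of 10 and 25, against 81.0, 61.0 and 276 CPM in control replicates 1 to 3. These were the nearest of 7643 or 7644 genes with a mean of at least 20 CPM. ago1 and ago3a had a lower mean, so they were not among the genes searched. Of those searched, the closest of the 10 stood at place 339 from drosha (ago2), 116 from ago1 (drosha) and 837 from ago2 (drosha).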

How the data were processed

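The authors deposited whole-number read counts per gene and a second table per gene, read as TPM because of its column sums. The submitters' processing notes name bcl2fastq 2.20 and danRer11; no source used here names an aligner or counter. Entries that name no gene were left out of library sizes. From the deposited counts, CPM were computed in R 4.3.3 by edgeR 4.0.16 (TMM scaling); limma was version 3.58.1. Genes passing edgeR's filter (minimum count 10; 16445 genes, all 10 described genes among them) were tested with the quasi-likelihood test, with a threshold of 0.05 after adjustment over all of them. Both pools were compared with the controls as 2 groups, and each pool in a fit of 3 groups, where a single pool library is assumed to vary like the controls. The fit was tested on simulated data. That simulation had no control that stood apart and no volume difference, so it cannot show how the fit performs at the spread seen here. Alternatives were DESeq2 1.42.0, limma voom, TPM with limma on log2(TPM + 1) or log2(TPM + 0.1) for genes with at least 1 TPM in a library, other scaling, no filter, a volume term and leaving out each control. The genes and lists were chosen with earlier results of these data known. The rule for names took all 10 genes, szrd1 and up to 3 genes of each list with the smallest p. Not every gene that this rule allowed is named. Outside the rule, tnrc6c1 and tnrc6c2 were named after their values were seen, and apoa4b.1, which was not tested, was named for its absence. Ribosomal protein genes were chosen by symbol.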

Additional observations from a re-analysis of the deposited data

How the results depend on the processing

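Of 330 fold changes recomputed for the 10 genes (3 comparisons, 11 alternatives), 303 kept direction and side of the threshold, 6 became calls and 21 changed sign. The calls, at both pools without control replicate 3, were dgcr8 (0.86), drosha (1.91), ago1 (1.82), ago2 (1.51), ago4 (0.89) and tnrc6a (1.22). The cause was not tested. With the volume term the sign changed for both pools in ago2 (-0.14), ago3a (-0.50) and ago4 (-0.54), for the pool of 10 in drosha (-0.29) and ago4 (-0.77), and for the pool of 25 in ago2 (-0.30), ago3a (-0.39) and ago4 (-0.35). For both pools, ago3a was between -0.19 and 0.46 with a control left out, and ago4 between -0.064 and 0.89. For the pool of 10, ago4 was between -0.29 and 0.65 and ago3a between -0.31 and 0.33; ago3a was 0.10 with library size only, 0.11 by voom, and 0.44 and 0.54 with log2(TPM + 1) and log2(TPM + 0.1). For the pool of 25, ago3a was between -0.082 and 0.58 with a control left out, and tnrc6b was 0.013 with library size only, and 0.17 and 0.21 with TPM. The median over all genes was -0.08 for both pools, 0.14 with library size only and 0.32 with log2(TPM + 1).

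Counts of all genes called lower and higher in both pools were 0 and 0, but 99 and 38 without a filter, 67 and 39 by DESeq2, 2 and 0 with log2(TPM + 1), 1 and 0 with log2(TPM + 0.1), 3 and 7 with the volume term, and from 0 to 2180 and from 0 to 2030 with a control left out, the highest without control replicate 3. In the pool of 10 they were 11 and 8 without a filter, 6 and 3 by DESeq2, and from 0 to 3 and from 0 to 4 with a control left out (highest without control replicate 1). In the pool of 25 they were 5 and 5 without a filter, 7 and 2 by DESeq2, and from 0 to 2 and from 0 to 3 with a control left out (highest without control replicate 1). Some of these edgeR fits treated the spread as nearly known, so their counts carry little weight. For single pools the median degrees of freedom were 47890 without a filter, against 10.6 in the main fit. They were 16087 and 15967 without control replicates 1 and 2. For both pools without a filter they were 113, against 10.1. Genes of the 10 above every control in both pools numbered 5, and from 5 to 9 with a control left out. The 9 came without control replicate 3 (31.2% of all genes). The 1 below every control was lost (0) with library size only and with TPM. The share of ago1 in the Argonaute sum, a mean of 9.72% of TPM over the pools, was 8.45% of CPM. No paired analysis was possible because the pools carry no replicate number and are 1 library each. Single pool libraries limit the precision of each pool's values.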
